A study of Mus musculus with 3 samples.

Results

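Antioxidant and detoxifying enzymes were followed across the layers of mouse ear epidermis through 10 transcripts, of 31053 genes in the deposited counts. The set is defined by gene symbol. It holds the superoxide dismutases Sod1, Sod2 and Sod3, the catalase Cat, the glutathione peroxidases Gpx1 and Gpx4, the glutathione transferases Gsta2, Gsta4 and Gstm1, and the flavin monooxygenase Fmo2. All 10 were found in the files and all 10 passed the low-count filter of the tests. Sod3 and Fmo2 passed it only with the counts of granular cells, where they are high. Untreated C57BL/6N mice, an inbred strain, aged 9 weeks, gave ear skin from which the epidermis was taken off with dispase and dissociated with trypsin. The cells were frozen and later run through a droplet kit that counts the 5' ends of transcripts as unique molecular identifiers (UMIs). This gave 3 libraries, all of the same untreated group, called replicates 1, 2 and 3. The labels name no genotype, transgene or sex, and do not say whether animals were pooled. Separate animals are not stated for them either, and p-values may then measure no more than the spread between libraries, which could be technical.

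Superoxide dismutases turn superoxide into hydrogen peroxide. Sod1 acts in the cytosol, Sod2 in mitochondria and Sod3 outside the cell. Catalase in peroxisomes and the selenium-containing glutathione peroxidases break down peroxides, Gpx1 mainly soluble ones and Gpx4 those of membrane lipids. Glutathione transferases join glutathione to reactive compounds, Gsta4 with a preference for aldehydes from lipid peroxidation, and flavin monooxygenases oxidise nitrogen- and sulfur-containing compounds. Epidermal keratinocytes divide in the basal layer and differentiate as they move outwards through the spinous and granular layers, where they meet oxygen, light and foreign chemicals.

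Cell groups were set by the share of a few keratin and envelope transcripts in each cell. Basal cells had at least 0.5% of their UMIs in Krt5 and Krt14 and under 0.5% in Krt1 and Krt10. Spinous cells had at least 0.5% in Krt1 and Krt10 and under 1% in Lor, which encodes the envelope protein loricrin, and granular cells had at least 1% in Lor. A further group held 5 or more UMIs of Krt79 and Defb6, genes of the upper hair follicle and sebaceous duct, and was taken first where a cell met more than 1 definition. Limits of 500 genes or more and no more than 10% mitochondrial UMIs kept 5340 of 6078 barcodes. These split into 2369 basal, 2229 spinous, 414 granular and 131 Krt79+Defb6 cells, with 197 outside these groups. Levels are given as CPM, the UMIs of a gene for every 1000000 UMIs of a library's group. Gene levels are not compared with each other.

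Depth differed between the groups. Median UMIs per cell ranged over the libraries from 7305.5 to 11798 in basal, 13256.5 to 20292 in spinous, 18377.5 to 28482 in granular and 16393.5 to 23937 in Krt79+Defb6 cells. Median mitochondrial shares ran from 4.55% to 4.91% in basal and from 1.76% to 1.83% in granular cells, so both depth and mitochondrial share moved with the layers, and their part in the results was not tested. Basal and granular cells carried the summed markers of their labels. Summed basal markers reached at least 22556 CPM in basal cells and at most 2108 in spinous cells, and summed granular markers at least 81554 in granular cells against at most 1157 in spinous cells. Both lists include the genes that set the groups, and the granular marker Tgm3 went the other way, at 31.1 in basal and 3.05 in granular cells. The spinous list did not single out spinous cells: it summed to 33319 to 36431 there, 44704 to 47573 in granular and 31854 to 41305 in Krt79+Defb6 cells. Markers of melanocytes, Merkel cells, fibroblasts, endothelial cells and erythroid cells summed to at most 20.9 CPM in any of the 4 groups. Libraries 2 and 3 shared 8 barcodes of kept cells, libraries 1 and 2 shared 3, and libraries 1 and 3 shared 0.

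In the mm10 build the superoxide dismutase genes lie at chr16:90220754-90226329 (Sod1), chr17:13006846-13040063 (Sod2) and chr5:52363791-52371418 (Sod3), all on the plus strand. Cat lies at chr2:103453849-103485160 on the minus strand, and Gpx1 at chr9:108338903-108340343 and Gpx4 at chr10:80047166-80056439 on the plus strand. Gsta2, at chr9:78331018-78355788 on the minus strand, and Gsta4, at chr9:78182774-78209349 on the plus strand, are on the same chromosome. Gstm1 lies at chr3:108012255-108017973 and Fmo2 at chr1:162874317-162898726, both on the minus strand. Sod1 overlaps Scaf4 on the opposite strand, and the sources used here do not say whether reads were counted by strand. Counts of 4 members could be affected by near-identical copies, in a way that was not examined. Of the 50-base stretches in the first 500 bases of their annotated transcripts, 46.9% in Gsta2 also occur in other genes (most in Gsta1), 40.4% in Gpx4 (in Gpx4-ps2), 25.4% in Gstm1 (most in Gstm2-ps1) and 20.2% in Sod1 (in Gm8566). In Sod2 the share was 2.29%, and in the other 5 members it was 0.

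Promoter windows of 3 members are shown because each member peaks in a different layer: Sod1 in basal, Gsta2 in spinous and Fmo2 in granular cells. They run from 250 bases before to 50 bases after a RefSeq start site (GRCm38.p6), 5' to 3' on the gene's strand, with every CG in capitals. The windows are chr16:90220512-90220811 (plus), chr9:78347096-78347395 (minus) and chr1:162898709-162899008 (minus). For Fmo2, which has 2 windows, the outer one is shown.
Sod1: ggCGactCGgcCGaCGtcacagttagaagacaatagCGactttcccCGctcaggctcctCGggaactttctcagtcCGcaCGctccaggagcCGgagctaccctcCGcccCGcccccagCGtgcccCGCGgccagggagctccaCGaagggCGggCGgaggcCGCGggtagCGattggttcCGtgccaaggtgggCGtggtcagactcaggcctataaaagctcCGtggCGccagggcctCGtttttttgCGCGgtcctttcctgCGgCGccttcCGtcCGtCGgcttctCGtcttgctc
Gsta2: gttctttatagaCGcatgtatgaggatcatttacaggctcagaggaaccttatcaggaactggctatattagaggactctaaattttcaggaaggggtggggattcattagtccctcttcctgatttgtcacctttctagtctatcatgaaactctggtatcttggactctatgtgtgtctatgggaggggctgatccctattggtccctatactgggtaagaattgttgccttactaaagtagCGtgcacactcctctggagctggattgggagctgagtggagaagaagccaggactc
Fmo2: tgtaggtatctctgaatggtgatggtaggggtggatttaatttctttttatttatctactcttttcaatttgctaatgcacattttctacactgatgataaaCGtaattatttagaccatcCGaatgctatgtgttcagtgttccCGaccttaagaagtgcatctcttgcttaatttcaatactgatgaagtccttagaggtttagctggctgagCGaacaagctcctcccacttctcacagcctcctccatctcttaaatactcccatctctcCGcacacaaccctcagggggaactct
The Sod1 window held 34 CG pairs at 66.7% G and C, the Gsta2 window 2 at 45.7% and the Fmo2 window 5 at 41.3%. The median over all 32851 windows of the table was 7 CG pairs and 52.7%. Promoters were found for 8 of the 10 members, in 13 windows, by symbol. The antioxidant response element, to which the oxidant-sensing factor NRF2 binds, was searched as TGACNNNGC on both strands. It occurred only in the Sod1 window, as GCGTGGTCA with its first base at position -56 from the start site. Over all windows 12.4% held this motif. The related letters TGANTCA, which overlap binding sites of AP-1, were in none of the 13 windows and in 7.81% of all windows. A match describes letters and not a binding site.

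The first comparison asks how the enzymes change as keratinocytes leave the basal layer. In spinous against basal cells, Gsta2 rose most of the members, Cat, Sod2 and Sod3 rose too, and Sod1, Gpx4, Gsta4, Gstm1 and Gpx1 fell. All 9 passed edgeR's quasi-likelihood test on counts summed per library and group, with library as a block, at a Benjamini-Hochberg adjusted p of 0.05 over 11160 genes. Of those genes 66.1% were called in the same comparison, 32.8% as higher and 33.4% as lower, so the members' 4 higher and 5 lower stand against a high background. Their median log2 difference was 0.06 and that of all genes tested -0.02. Fitted differences use TMM scaling, which sets the bulk of genes near 0 and moved the median of all genes up by 0.31 on the log2 scale relative to plain totals. With totals, 2432 genes were called higher and 5464 lower in place of 3658 and 3724, and the 9 members kept their directions and calls.

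Among the dismutases, Sod1 stood at 60.7, 59.5 and 67.5 CPM in the basal cells of replicates 1, 2 and 3, and at 10.1, 9.62 and 11.6 in spinous cells. All 3 spinous values lay far below the basal ones, and the fitted log2 difference was -2.27 ± 0.13 (SE, edgeR adjusted p = 1.6e-10). Sod2, the mitochondrial enzyme, was at 81.3, 80.9 and 83.8 in basal and at 108, 107 and 103 in spinous cells. The ranges did not overlap, but the rise was small, 0.69 ± 0.11 (edgeR adjusted p = 2.14e-05). Sod3 had only 3 UMIs in all basal cells and 42 in all spinous cells, a ratio of 8.75 per UMI sequenced with an exact 95% counting interval of 2.80 to 44.1 (edgeR adjusted p = 0.00671). Replicate 2 gave all 3 of the basal UMIs. Sod3 passed the low-count filter only with its granular profiles.

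The peroxide-removing enzymes moved in opposite directions. Gpx1 was at 1298, 1178 and 1285 in basal and at 655, 645 and 731 in spinous cells, and its fitted difference was -0.57 ± 0.12 (edgeR adjusted p = 0.000329). Gpx4 dropped from 320, 279 and 303 to 72.5, 76.1 and 65.3, a difference of -1.76 ± 0.16 (edgeR adjusted p = 5.03e-08). Neither gene's spinous values reached its basal range. Cat went the other way, from 21.8, 18.8 and 18.7 to 34.0, 40.2 and 32.5, a difference of 1.16 ± 0.17 (edgeR adjusted p = 1.58e-05). Markers of T cells summed to 269 to 333 CPM in basal and 6.84 to 10.8 in spinous cells. Thy1 made up nearly all of the basal sum, at 297 ± 35.1 (SD, n = 3), and the other 6 genes of that list were each at 0.797 or less on average in basal cells. Langerhans cell markers, all 6 of them detected, summed to 130 to 165 in basal and 129 to 190 in spinous cells. The part of other cell types in these results was not tested.

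Of the transferases, Gsta2 rose from 4.26, 4.69 and 6.43 CPM in basal to 97.0, 106 and 108 in spinous cells. All libraries showed the rise, which was 4.63 ± 0.18 on the log2 scale, or 24.7-fold (edgeR adjusted p = 1.08e-12). Gstm1 went from 184, 166 and 155 down to 72.0, 61.2 and 66.8, a difference of -1.02 ± 0.10 (edgeR adjusted p = 5.3e-08). Gsta4 was uneven between libraries, at 21.5, 7.39 and 23.5 in basal and 4.74, 2.04 and 5.70 in spinous cells, with replicate 2 lowest in both. Within every library it was lower in spinous cells, by -1.71 ± 0.22 (edgeR adjusted p = 4.71e-06). Fmo2 had 7 UMIs in all basal and 18 in all spinous cells and was not called (log2 difference 0.91 ± 0.70, edgeR adjusted p = 0.264), although 1 of 18 alternatives, with the layer thresholds doubled, called it at 1.59 (adjusted p = 0.0274). For Gsta1, which shares sequence with Gsta2, the mean went from 0.377 to 16.1 (edgeR adjusted p = 4.06e-11), so the 2 related transcripts rose together, with counts that cannot be fully told apart.

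**Figure D1:**
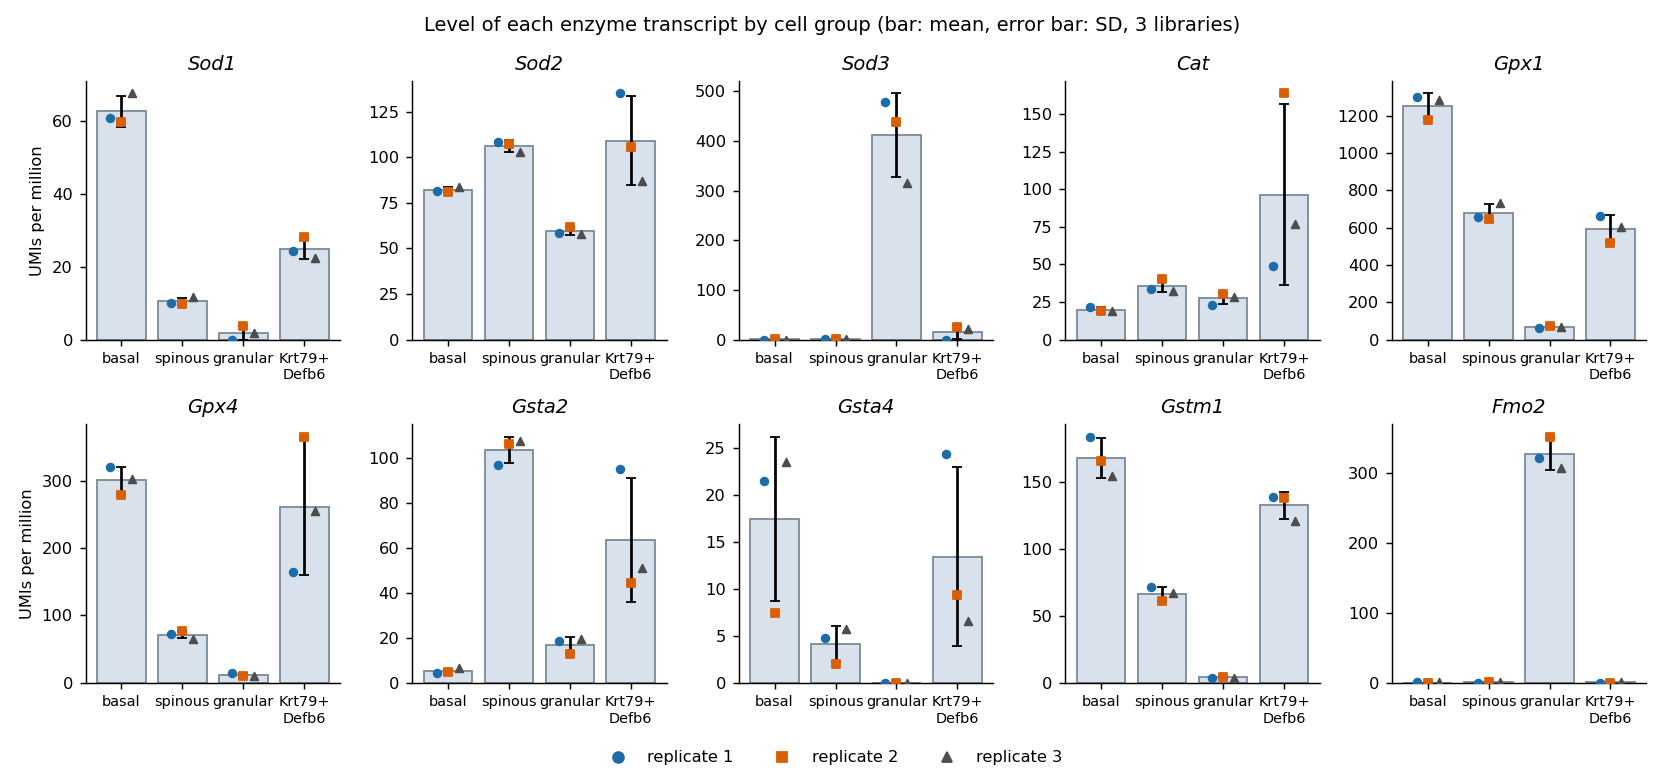
CPM (vertical axis, own scale per gene) of each of the 10 enzyme transcripts in the 4 cell groups (horizontal axis), with bars for means, error bars for SDs over 3 libraries and points for the libraries. Sod1, Gpx1 and Gstm1 are highest in basal cells, Gsta2 in spinous cells, and Sod3 and Fmo2 in granular cells, where Gsta4 is at 0.

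The next comparison follows the step into the granular layer. Sod3 and Fmo2 came on in granular cells from levels near 0, while Gpx1, Gpx4, Sod1, Gsta4 and Gstm1 fell further and Gsta2, which had risen at the step before, fell. With 2 members higher, 6 lower and 2 not called, the median log2 difference was -1.69, also with Gsta4 at its bound, against -0.22 over all genes tested. In this comparison 67.5% of genes were called, 30.8% higher and 36.7% lower. TMM moved the median of all genes up by 0.80 relative to totals, and with totals 1986 genes were higher and 6964 lower in place of 3439 and 4091. CPM levels therefore look lower in granular cells than the fitted differences say.

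Sod3, the extracellular dismutase, was at 0.921, 2.04 and 0.607 CPM in spinous cells and at 479, 438 and 316 in granular cells of replicates 1, 2 and 3. The fitted log2 difference was 9.16 ± 0.33 (edgeR adjusted p = 1.7e-13). Fmo2 was at 0, 0.985 and 0.380 in spinous and at 321, 352 and 307 in granular cells, a difference of 10.04 ± 0.26 (edgeR adjusted p = 5.28e-15). For both genes every granular library lay far above every spinous, basal and Krt79+Defb6 library. Both passed the low-count filter only with their granular profiles, so their adjusted p-values carry that selection. Both were also called without the filter. Summed over libraries the counts were 3247 Sod3 UMIs in granular against 42 in spinous cells, and 2706 against 18 for Fmo2. Langerhans cell markers also summed higher in granular cells, at 716 to 926, nearly all of it Epcam (799 ± 80.4), while Cd207 was at 0.240 in granular and 0.251 in spinous cells on average. Cd74 (21.0 against 7.70), H2-Aa (10.1 against 7.55) and H2-Ab1 (6.97 against 1.89) had higher means in granular cells, each with an SD over libraries above its granular mean, and Mfge8 was at 0.120 against 2.61. The thinned Langerhans cells described below held 0 UMIs of both genes.

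Gpx1 fell from 655, 645 and 731 to 60.6, 69.9 and 67.0, by -2.56 ± 0.13 on the log2 scale (edgeR adjusted p = 1.39e-11). Gpx4 was at 14.8, 9.73 and 10.6 in granular cells, lower by -1.86 ± 0.23 (edgeR adjusted p = 2.26e-06). Both peroxidases thus declined at each of the 2 steps, without overlap between libraries. Gstm1 stood at 3.56, 4.32 and 3.88 in granular cells, a difference of -3.24 ± 0.18 (edgeR adjusted p = 4.52e-11), and Gsta2 at 18.4, 13.0 and 19.4, a difference of -1.82 ± 0.18 (edgeR adjusted p = 1.21e-07). Gsta2 was thus higher in spinous cells than in the layers on either side. Sod1 had 17 UMIs in all granular cells, at 0, 3.60 and 1.81 CPM, and was lower by -1.56 ± 0.36 (edgeR adjusted p = 0.00101). Gsta4 had 0 UMIs in granular and 138 in spinous cells. Set against a floor of 3 UMIs over the group, that is 11.3-fold lower per UMI sequenced, with an exact 95% counting limit of 9.05-fold. Gsta4 was called (edgeR adjusted p = 0.000456), but the call was lost when every cell was thinned to 3000 UMIs (edgeR adjusted p = 0.0548).

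For Sod2 and Cat the direction depended on the scaling. Sod2 was at 58.2, 62.0 and 57.9 CPM in granular cells, below all spinous libraries on totals (-0.83, edgeR adjusted p = 1.03e-05), yet its TMM-scaled difference was -0.04 ± 0.12 (edgeR adjusted p = 0.8) and turned to 0.054 with DESeq2's size factors. Cat was at 23.2, 30.6 and 28.4, with a TMM-scaled difference of 0.45 ± 0.20 (edgeR adjusted p = 0.0542) that became -0.35 with totals and was called in 5 of 18 alternatives, among them at 0.52 without replicate 1 (edgeR adjusted p = 0.0164). No change of either gene at this step held under every scaling.

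**Figure D2:**
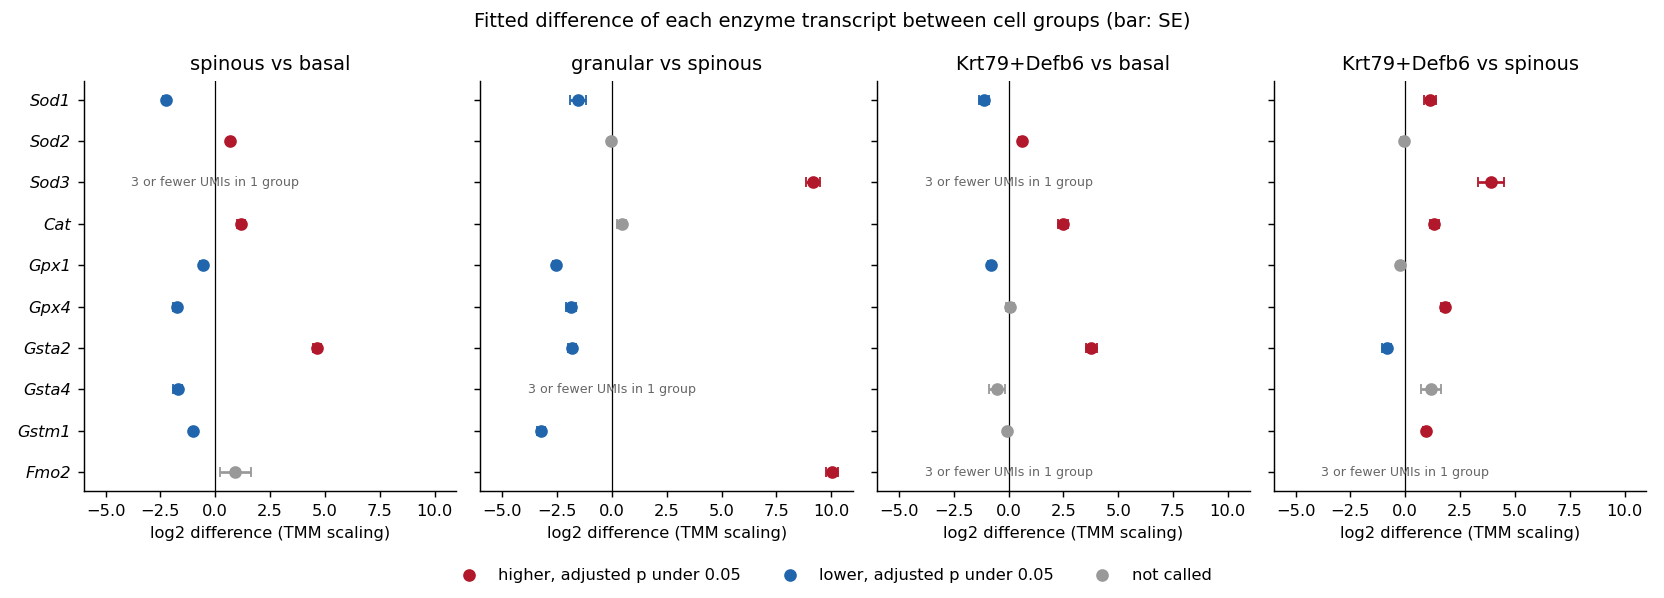
Fitted log2 differences (horizontal axis, TMM scaling) of the 10 enzyme transcripts (vertical axis) in the 4 comparisons, with SE bars, red for called higher, blue for called lower and grey for not called in edgeR's test, and without fits that have 3 or fewer UMIs in a group. Sod3 and Fmo2 stand out in granular against spinous cells at 9.16 and 10.04.

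Levels were also taken along finer steps inside the layers. Spinous cells that also held at least 0.5% of their UMIs in Krt5 and Krt14 numbered 31, 68 and 96 in replicates 1 to 3. They were intermediate for 6 of the 10 members in every library: Sod1, Sod2, Gpx1, Gpx4, Gsta2 and Gstm1. These cells were chosen by keratins of both layers, and the share of all genes at intermediate levels was not counted. Their Gpx4 level was 183, 181 and 128, against 66.2, 69.6 and 59.1 in the other spinous cells. Gsta2 in the same cells was at 46.2, 63.5 and 43.4, against 99.9, 109 and 114. For both genes these cells fell between the basal and the remaining spinous cells in every library. Sod1 was at 29.2, 35.0 and 34.9 in them. Gsta4 did not follow this order, at 14.6, 11.7 and 31.5 in the same cells, above basal cells in replicates 2 and 3. Neither did Cat, at 9.73, 35.0 and 18.7, below basal cells in replicate 1.

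Granular cells were divided at a Lor share of 5% of UMIs. Sod3 was at 179, 314 and 241 below that share and at 642, 554 and 376 above it. Fmo2 was at 18.6, 90.4 and 104 below it and at 485, 595 and 468 above it. In each library both genes were thus higher in the cells with more Lor. Gpx1 was at 143, 86.7 and 110 below the 5% share and at 15.6, 54.3 and 32.8 above it, and Sod2 at 101, 90.4 and 78.0 below it and at 34.8, 35.5 and 42.1 above it. The Sod2 level of granular cells with less Lor overlapped that of spinous cells with Krt5 and Krt14 (105, 82.9 and 98.6). CPM in cells with much Lor include the Lor UMIs in their totals.

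**Figure D3:**
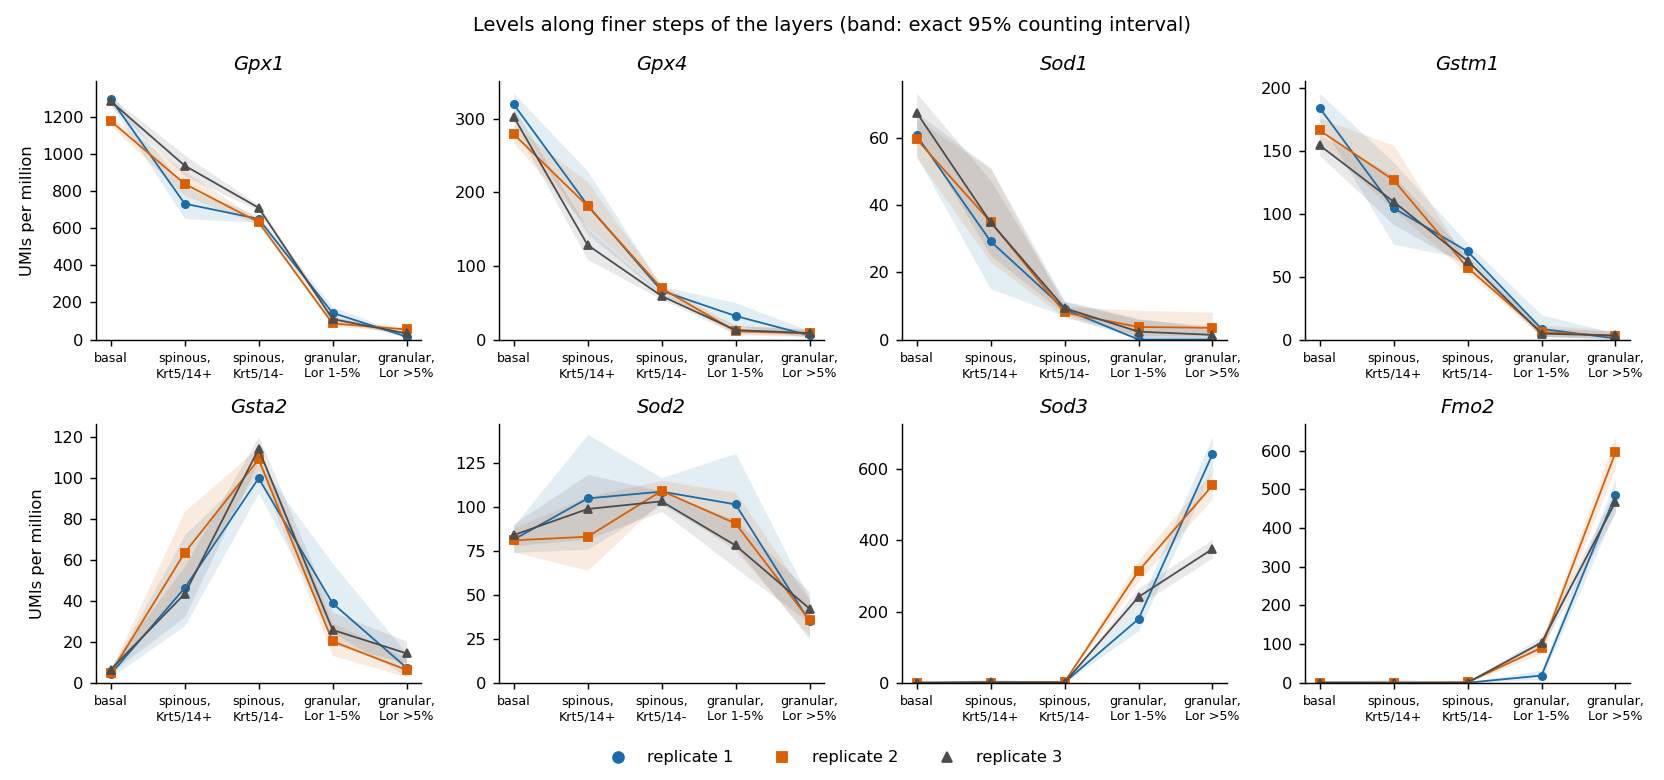
CPM (vertical axis, own scale per gene) of 8 enzyme transcripts along 5 steps from basal to granular cells with over 5% Lor (horizontal axis), with lines for the 3 libraries and bands for exact 95% counting intervals. Gpx1, Gpx4, Sod1 and Gstm1 decline along the steps, Gsta2 peaks in spinous cells, and Fmo2 reaches 468 to 595 in the last step.

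The Krt79+Defb6 cells came to 19, 28 and 84 in replicates 1 to 3, and 97 of the 131 also met a layer rule. Against basal cells, Cat, Gsta2, Sod2 and Sod3 were higher and Sod1 and Gpx1 lower. That is 4 members higher, 2 lower and 4 not called, where 50.5% of all genes were called, 26.7% higher and 23.8% lower. The members' median log2 difference was 0.35 and that of all genes -0.06. TMM moved the median of all genes up by 0.30 relative to totals, with 2980 genes higher and 2654 lower under TMM and 2286 and 3975 with totals. Against spinous cells, Sod1, Sod3, Cat, Gpx4 and Gstm1 were higher, Gsta2 was lower and 4 members were not called. Fewer genes were called there, 9.88% of all, with 7.07% higher and 2.81% lower. The members' median was 1.05 and that of all genes -0.02. TMM and totals differed by -0.01 in this comparison.

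Cat was at 48.7, 164 and 76.9 CPM in these cells, above every basal, spinous and granular library. It exceeded basal cells by 2.50 ± 0.23 on the log2 scale (edgeR adjusted p = 1.31e-07) and spinous cells by 1.33 ± 0.22 (edgeR adjusted p = 0.000564). Gpx4 was at 164, 365 and 254, and thus above all spinous libraries, by 1.83 ± 0.18 (edgeR adjusted p = 5.8e-06), while its range overlapped that of basal cells. Its difference from basal cells was 0.07 (edgeR adjusted p = 0.781) and turned to -0.22 with totals, to -0.21 without replicate 2 and to a called 0.35 without replicate 1 (adjusted p = 0.0414). Gstm1 was at 139, 138 and 121 over the whole group, above all spinous libraries by 0.95 ± 0.12 (edgeR adjusted p = 5.72e-05). In the cells that also met the spinous rule, Gstm1 overlapped the spinous group. Against basal cells the whole group's Gstm1 difference of -0.07 was not called (edgeR adjusted p = 0.661). It was called at -0.35 with totals (edgeR adjusted p = 0.0199).

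The remaining members of this group varied more. Gsta2 was at 95.2, 44.5 and 51.3, with 131 of its 140 UMIs in cells that also met the spinous rule. It was above basal cells by 3.78 ± 0.27 (edgeR adjusted p = 3.38e-09). From spinous cells it differed by -0.85 ± 0.19 (edgeR adjusted p = 0.0084). The difference from spinous cells lost its call without replicate 2 (adjusted p = 0.162) and without replicate 3 (adjusted p = 0.281). Sod1 was at 24.3, 28.1 and 22.3 over the whole group, between spinous and basal cells without overlap, but unevenly spread over its cells, as given below. It differed from basal cells by -1.12 ± 0.23 (edgeR adjusted p = 0.000569, but 0.081 without replicate 3) and from spinous cells by 1.14 ± 0.27 (edgeR adjusted p = 0.0113, but 0.0916 without replicate 2 and 0.193 without replicate 3). Sod2 was at 135, 105 and 86.7, higher than in basal cells by 0.63 ± 0.14 (edgeR adjusted p = 0.00114) and overlapping spinous cells. Gpx1 was at 662, 518 and 601, lower than in basal cells by -0.80 ± 0.12 (edgeR adjusted p = 3.11e-05), and its difference of -0.23 from spinous cells was not called (edgeR adjusted p = 0.269). It was called in 2 of 18 alternatives, at -1.53 without cells of more than 1 definition (adjusted p = 5.57e-08) and at -0.54 with the group set at 0.1% of UMIs (adjusted p = 0.0028). Both alternatives had no Krt79+Defb6 profile of replicate 1. The former rested on 12 and 19 such cells in replicates 2 and 3, the latter on 16 and 42. Gsta4, with 25 UMIs in the group, was called in neither comparison, but 5 of 18 alternatives called it above spinous cells, among them 2.19 without replicate 3 (edgeR adjusted p = 0.0471) and 2.27 without cells of more than 1 definition (adjusted p = 0.0243). Fmo2 had 2 UMIs in all.

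Sod3 in this group came from the cells that also met the granular rule. Its level was 0, 25.8 and 21.0 in replicates 1 to 3, and 41 of its 43 UMIs lay in 11 granular-rule cells, at 139 and 158 CPM in replicates 2 and 3. Replicate 1 had 0 granular-rule cells in the group. The edgeR calls were 1.96e-06 (adjusted p) against basal cells, where the ratio per UMI sequenced was 127 with an interval of 40.6 to 639, and 0.000262 against spinous cells. The latter was lost without replicate 3 (adjusted p = 0.156).

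Cat and Gpx4 were unevenly spread as well. The 3, 12 and 19 cells that met no layer rule had Cat at 0, 590 and 348, against 33.2, 32.4 and 27.0 in the 12, 10 and 46 cells that met the spinous rule. Gpx4 was at 497, 1377 and 1312 in the former and at 57.4, 18.5 and 48.1 in the latter. The 4, 3 and 11 basal-rule cells had Cat at 116, 33.6 and 117 and Gpx4 at 443, 369 and 848. In each library the spinous-rule cells thus had Cat and Gpx4 below the levels of the spinous group. In replicate 1, where cells under no layer rule had 0 Cat UMIs, Cat was high only in the 4 basal-rule cells. Gsta2 showed the reverse, with 130, 69.4 and 70.3 in spinous-rule cells and 0, 9.83 and 15.8 in cells under no layer rule. The 18 basal-rule cells held 0 Gsta2 UMIs. Sod1 stood at 2.89 to 4.62 in spinous-rule cells, below every library of the spinous group. In basal-rule cells it was at 33.6 to 156, and under no layer rule at 0 to 98.3. Gstm1 was at 60.1 to 81.6 in spinous-rule cells, overlapping the spinous group. In basal-rule cells Gstm1 was at 338 to 504, and under no layer rule at 153 to 316. With cells that met more than 1 definition left out, which leaves only those under no layer rule in replicates 2 and 3 (12 and 19 cells, since the 3 of replicate 1 are too few for a profile), Gpx4 was called above basal cells at 2.09 (edgeR adjusted p = 6.17e-13), and Sod1, at 0.32, and Gsta2, at 1.25, lost their calls against basal cells (adjusted p = 0.575 and 0.35).

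Markers of sebocytes were also summed in the Krt79+Defb6 cells. The list's 8 genes were all detected in the group and summed to 226 to 3124 CPM over its libraries, and to 229 to 13619 in the cells under no layer rule. Basal cells had 7 of the 8 (Mc5r at 0) at 77.4 to 90.2 in sum, and spinous cells 6 (Pparg and Mc5r at 0) at 225 to 243. Markers of the upper follicle and sebaceous duct, which include Krt79 and Defb6, summed to 7414 to 10067 CPM in the Krt79+Defb6 group. In its cells under no layer rule that sum was 19046 to 92138. The part of either list in the Cat and Gpx4 levels was not tested. Under a mitochondrial limit of 5% the Cat difference from spinous cells was 0.53 and not called (edgeR adjusted p = 0.237), and Gpx4 was called lower than in basal cells (-0.73, edgeR adjusted p = 0.00368).

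**Figure D4:**
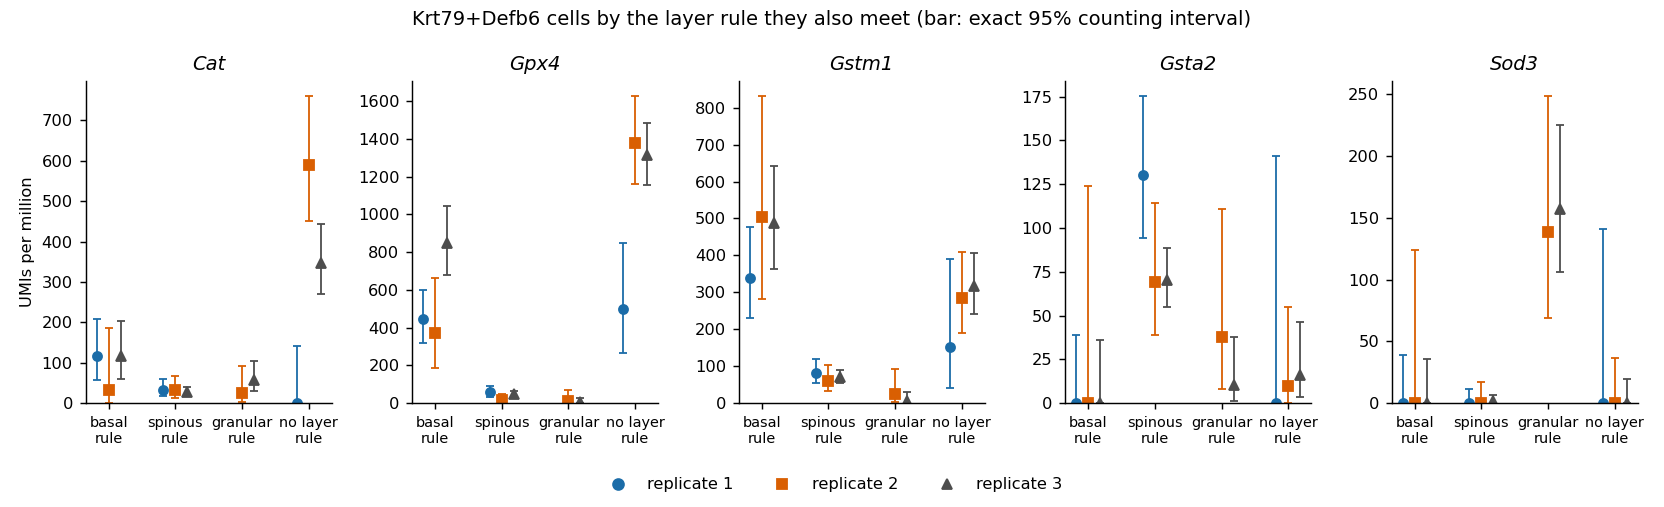
CPM (vertical axis, own scale per gene) of 5 enzyme transcripts in Krt79+Defb6 cells by the layer rule they also meet (horizontal axis), with points for libraries and bars for exact 95% counting intervals, which cover counting error only. Cat and Gpx4 are high in cells under no layer rule in replicates 2 and 3, Gsta2 in spinous-rule cells and Sod3 in granular-rule cells.

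Ordered by CPM over whole groups, Sod1 ran from basal over Krt79+Defb6 and spinous to granular cells, with no overlap between neighbours. Gpx1 and Gstm1 were highest in basal and lowest in granular cells, and for Gpx1 the spinous and Krt79+Defb6 ranges overlapped. Gpx4 and Gsta4 shared the same extremes, with basal and Krt79+Defb6 cells overlapping. Gsta2 ran from spinous over Krt79+Defb6 and granular to basal cells without overlap. Cat ran from Krt79+Defb6 over spinous and granular to basal cells, also without overlap. With TMM scaling Cat was instead higher in granular than in spinous cells (log2 difference 0.45, not called). Below granular cells, the Fmo2 ranges of the other 3 groups overlapped, and for Sod3 those of Krt79+Defb6 and spinous cells did.

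Shares of cells with at least 1 UMI were compared after thinning each cell to 3000 UMIs, since depth rose with the layers. Sod3 was seen in 57.7% of thinned granular cells (82.1% before thinning) and in 0 of 2144 thinned basal cells, which allows a share of cells with a UMI of up to 0.140% by counting error alone. Before thinning 3 of 2369 basal cells (0.127%) had 1. Fmo2 was seen in 40.3% of thinned granular cells (58.7% before) and in 0.187% of basal cells. Gsta2 was in 26.2% of thinned spinous cells (64.7% before) and in 1.35% of basal cells. Langerhans cells, taken as ungrouped cells with at least 0.5% of UMIs in Cd74, H2-Aa and H2-Ab1 and at medians of 5008 and 5336 UMIs in 2 libraries, gave 0 of 42 thinned cells for each of these 3 genes, which allows up to 7.14%. Gpx1 went from 94.4% of thinned basal cells over 81.9% of spinous to 13.8% of granular cells. Gpx4 went from 55.7% over 19.1% to 2.56%, below the 73.8% of the Langerhans cells. Thinning left out 225 basal, 92 spinous, 24 granular and 4 Krt79+Defb6 cells.

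Sod3 and Fmo2 were found partly in the same granular cells. Among thinned granular cells with Sod3, 48.6%, 49.4% and 36.6% also had Fmo2 in replicates 1, 2 and 3, and among those without Sod3, 50.0%, 32.7% and 34.4% had it. The difference had no single direction over the libraries. At this depth a cell without a UMI cannot be told from a cell without the transcript.

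The wider redox and detoxification pathways were described by 10 lists of other genes, of which 161 were tested. In spinous against basal cells 61 of the 161 were higher and 61 lower, with a median log2 difference of 0.04 that became -0.28 with totals, where 32.8% of all genes were higher and 33.4% lower. In granular against spinous cells 56 were higher and 67 lower, with a median of -0.57 that became -1.36 with totals, where 30.8% of all genes were higher and 36.7% lower. The other glutathione transferases had 13 of 16 lower at that step, 1 higher and 2 not called, at a median of -2.32, the same side as the 3 transferases among the members. The peroxisome list, whose proteins import and surround catalase, had 9 of 19 higher and 2 lower in granular against spinous cells, at a median of 0.15. With totals the medians of these lists were -3.12 and -0.65, so the direction of the peroxisome median turned with the scaling. The median of all genes at that step moved too, from -0.22 with TMM to -1.02 with totals. In spinous against basal cells it moved from -0.02 to -0.33. In Krt79+Defb6 against basal cells 73 of the 161 were higher and 38 lower, where 26.7% of all genes were higher and 23.8% lower. Against spinous cells 40 were higher and 8 lower, with a median of 0.25, where 7.07% of all genes were higher and 2.81% lower.

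Genes of the lists with the largest changes were named by a fixed rule of size. Leaving the basal layer, the lipoxygenases Alox12 (0.438 to 73.7 CPM), Alox12e (4.97 to 400) and Alox12b (0.723 to 53.8) and the iron exporter Slc40a1 (1.31 to 42.6) rose. The carbonyl reductase Cbr2 (128 to 4.63), the peroxidase Gpx8 (26.6 to 1.19), the ferritin light chain Ftl1 (386 to 20.7) and the epoxide hydrolase Ephx1 (59.0 to 3.17) fell. Alox12b acts in building the epidermal lipid barrier, so oxidising enzymes are part of this list as well as protective ones. The log2 differences of the 8 genes lay between -4.44 and 7.52, each at an edgeR adjusted p of 6.15e-11 or less.

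Entering the granular layer, the haem oxygenase Hmox1 rose from 3.41 ± 0.32 to 284 ± 42.5 CPM (SD, n = 3), a log2 difference of 7.19 ± 0.16 (edgeR adjusted p = 1.4e-15). The retinoic acid hydroxylase Cyp26b1 (7.48 to 374), the glutathione-degrading Chac1 (1.38 to 47.3) and the glutaredoxin Glrx (56.5 to 718) rose with it. The microsomal transferase Mgst2 (33.2 to 1.19), the metallothionein Mt4 (5010 to 201), the alcohol dehydrogenase Adh7 (36.1 to 1.82) and the omega-class transferase Gsto1 (109 to 5.79) fell. Each of the 7 was called at an edgeR adjusted p of 1.38e-07 or less.

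In Krt79+Defb6 cells the same 3 lipoxygenases and Slc40a1 led the rises over basal cells, and Cbr2, Mt2, Akr1b8 and Ephx1 led the falls. Over spinous cells the leading rises were Akr1c18, a hydroxysteroid dehydrogenase (0.606 to 207), Mgst1 (6.60 to 660), the acyl-CoA synthetase Acsl4 (4.28 to 35.8) and Aldh3a1 (13.3 to 80.8). Mgst1 had an SD of 678 in the Krt79+Defb6 cells, larger than its mean, with an edgeR adjusted p of 1.16e-06. The leading falls were Mt2 (234 to 75.1), the ferritin heavy chain Fth1 (682 to 335), Mt4 (5010 to 2696) and Ces2g (28.0 to 16.2), the last at an edgeR adjusted p of 0.0268.

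**Figure D5:**
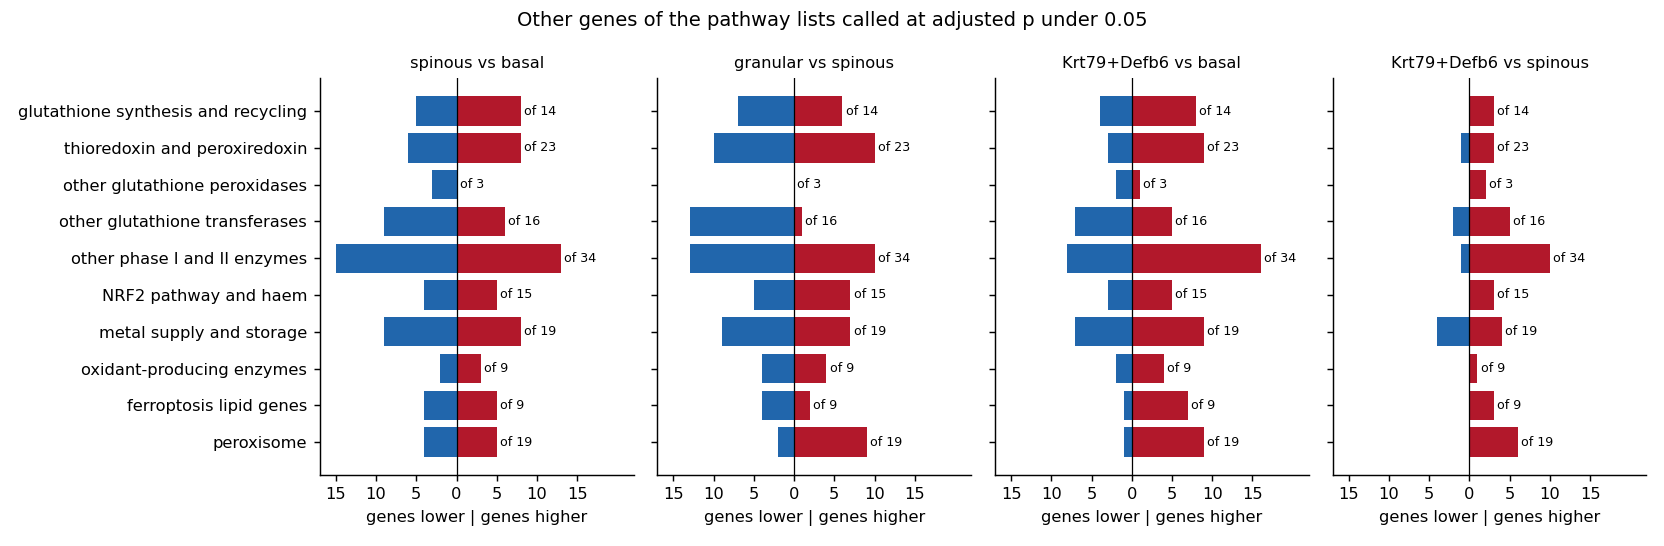
Number of tested genes of each pathway list (vertical axis) called higher (red, to the right) or lower (blue, to the left) in edgeR's test in the 4 comparisons, with the number tested beside each bar. Of 16 other glutathione transferases 13 are lower in granular than in spinous cells.

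The genes most like a member were taken by Pearson's r of log2(CPM + 1) over the 12 library-by-group profiles, among 4983 genes. These profiles share libraries and cell groups, so r describes the pattern and carries no test. Fmo2 was most like Lce1a2, Aif1l and Lce1f, at 0.997 each, 2 of them late cornified envelope genes, and Sod3 most like Lrrc28 (0.996), Plekha4 (0.996) and Gm14137 (0.994). Gpx1 was most like Gsto1 (0.997), Gpx4 most like Atp5g3 (0.985) and Gstm1 most like Apoe (0.997). Gsta2 was nearest to Serpinb5 (0.986) and Sod2 to Atxn3 (0.988). Sod1 was nearest to Car12 (0.982) and Gsta4 to Arpp19 (0.980).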

How the data were processed

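The 3 libraries of ear epidermis were used as deposited. Per the submitters' processing notes, the authors made UMI counts per gene and cell with Cell Ranger 3.1.0 on mm10, and the deposited matrices are not normalized. Annotation version and strand setting are not given in the sources used here. Genes were matched to GENCODE M21 (30934 of 31053 identifiers), promoters to RefSeq (GRCm38.p6).

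The files hold 68583868 UMIs in 6078 barcodes, of which the gene and mitochondrial limits left 5340 cells. Scrublet in scanpy 1.11.5 marked 30 doublets (0.562%), which were kept. Near the thresholds (within 1.5-fold) lay 154 cells below and 266 above for Krt1 and Krt10, 41 and 39 for Lor, and 13 and 20 for Krt79 and Defb6. UMIs were summed per library and group into 12 profiles. One fit in edgeR 4.0.16 (R 4.3.3) used TMM, filterByExpr and library as a block, and adjusted over 11160 genes. Genes that set the groups were not tested. Library deviations from group means correlated across genes at r from 0.0647 to 0.291 in the compared groups, which pair by construction since each library gives all groups. The fitting script was tested on simulated counts. Alternatives included DESeq2 1.42.0, other scalings, filters, thresholds and leaving out libraries. Intervals are exact (Poisson or binomial, 95%) and cover counting error only. Limits beside shares of 0 are not such intervals and are the share that 3 cells with a UMI would give. The members, lists and rules were chosen with earlier results of these data known. Named pathway genes are, per comparison, up to 4 called genes a direction with the largest log2 difference and at least 20 CPM in the higher group. Nearest genes are the 3 with the highest r among tested genes at a mean of at least 20 CPM. Not every nearest gene is reported here.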

Additional observations from a re-analysis of the deposited data

Results flagged for a closer look

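Some cells outside the 4 compared groups are listed here for their Sod1 and Gpx4 levels. In libraries with at least 10 such cells these lay above every library of the 4 groups taken whole. Parts of the Krt79+Defb6 group reached such levels too. Its cells under no layer rule had Gpx4 at 497 to 1377 CPM, and its basal-rule cells had Sod1 at 33.6 to 156. In Langerhans cells, taken by Cd74, H2-Aa and H2-Ab1, Sod1 was at 118 CPM (112 and 125 in the 2 libraries with at least 10 such cells), where the highest library of the 4 groups was at 67.5. Gpx4 in the same cells was at 438 (386 and 490), where the highest was 365. In T cells, taken as ungrouped cells with 3 or more UMIs of Trdc, Cd3e, Cd3d and Cd3g, only replicate 2 had 10 cells. Sod1 was at 101 there, which rests on 3 UMIs, and Gpx4 at 371, on 11 UMIs. Over all 3 libraries Sod1 in T cells ranged from 0 to 101, on 4 UMIs, and Gpx4 from 371 to 473, on 24. These differences were not tested.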

How the results depend on the processing

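The 9 members called in spinous against basal cells were called in all 18 alternatives, as were 7 of 8 in granular against spinous cells (all but Gsta4), 2 of 6 (Cat and Gpx1) in Krt79+Defb6 against basal cells and 2 of 6 (Gpx4 and Gstm1) against spinous cells. Thinning to 3000 UMIs cut the genes called from 7382 to 4664, from 7530 to 4741, from 5634 to 2261 and from 1103 to 538 in these comparisons, in that order. Leaving out 1 library gave 2755 (without replicate 3) to 5528 genes in Krt79+Defb6 against basal cells and 213 (without replicate 3) to 1456 against spinous cells, with 417 without replicate 2. Leaving out cells of more than 1 definition gave 2159 and 2140 for these, and a Krt79+Defb6 limit of 0.1% of UMIs gave 3647 for the former. Neither of these 2 settings had a Krt79+Defb6 profile of replicate 1. Without the replicate block 6902, 7393, 5515 and 893 genes were called.

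Directions turned as follows. Leaving out 1 library moved Fmo2 in spinous against basal cells from -0.47 (without replicate 2) to 1.55. In granular against spinous cells Sod2 was 0.054 with DESeq2's size factors and 0.056 in DESeq2, and Cat was -0.35 with totals. In Krt79+Defb6 against basal cells, leaving out cells of more than 1 definition gave 0.32 for Sod1, -2.55 for Sod3, 0.60 for Gsta4 and 0.83 for Gstm1. In the same comparison Sod2 thinned was -0.21, Gsta4 without 1 library ranged from -1.02 to 0.49 (without replicate 3), and Gstm1 was 0.0036 at 10 UMIs, 0.65 at 0.1% and 0.60 thinned. Gpx4 there was -0.015 with DESeq2's size factors, -0.22 with totals, -0.023 in DESeq2 and -0.73 at 5% mitochondrial UMIs, and ranged from -0.21 (without replicate 2) to 0.35 without 1 library. Against spinous cells Sod2 ranged from -0.18 to 0.075 (without replicate 3) and was 0.084 without cells of more than 1 definition, where Sod3 was -5.80. For each of these the cause was not tested. The 131 Krt79+Defb6 cells limit what can be seen in that group, and replicate 1 gave 19 of them.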

Other observations

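Levels of 3 partners of the enzymes, chosen after their values were seen, are given as a description. Ccs, the copper chaperone of Sod1, was at 60.1 ± 1.09 CPM in basal, 30.8 ± 1.90 in spinous and 6.65 ± 0.51 in granular cells (SD, n = 3). Nfe2l2, which encodes NRF2, was at 71.2, 41.6 and 11.7 in the same order, and Prdx1, a peroxiredoxin, at 869, 540 and 109. The lists that hold the 3 were mixed at the granular step, where 30.8% of all genes were called higher and 36.7% lower. Metal supply and storage, with Ccs, had 7 higher and 9 lower of 19 genes. The NRF2 pathway and haem had 7 higher and 5 lower of 15, and thioredoxin and peroxiredoxin genes 10 and 10 of 23. In spinous against basal cells the lists had, in that order, 8 and 9, 5 and 4, and 8 and 6, where 32.8% and 33.4% of all genes were called.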
